A study of Mus musculus with 2 samples.

Results

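The transforming growth factor beta (TGF-beta) ligands Tgfb1, Tgfb2 and Tgfb3, the latency protein Ltbp1, the receptors Tgfbr1, Tgfbr2 and Tgfbr3, and the feedback genes Smad7 and Skil were followed in single cells of mouse liver. These 9 genes were picked by name, for their place in the pathway, out of 31054 features in the count files. The choice was made with earlier results of these data known. They were compared between libraries in stellate, endothelial and Kupffer cells, each class gated on other genes.

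Transcripts were counted per cell by 10x 3' sequencing in preparations of hepatic stellate cells (HSCs), the vitamin A-storing cells that make collagen in the injured liver. There were 2 libraries, 1 per genotype. All mice were male, on a C57BL/6 background and heterozygous for the alleles named. Both carried p16-CreERT2, a tamoxifen-inducible Cre under p16 control, together with the cassette R26-CAG-LSL-RSR-tdTomato-2A-DTR, which needs Cre and Dre at once to express tdTomato and the diphtheria toxin receptor. The p16-Alb-LRTD mice also carried Alb-DreERT2, a Dre driven in hepatocytes, so that diphtheria toxin eliminates their p16-high hepatocytes. The p16-LRTD mice lacked Alb-DreERT2 and served as controls. The study names leaky expression of the toxin receptor past the first stop element as a possible limit of this model. All mice received carbon tetrachloride (CCl4) for 4 weeks to induce fibrosis, and tamoxifen and diphtheria toxin, so by design the controls lack only the hepatocyte Dre. With 1 library per genotype, differences between mice, digestions or library preparations cannot be told apart from genotype. HSCs were enriched by pronase and collagenase perfusion and a Nycodenz density gradient. No source used here gives how many mice a library pools, so variation among mice cannot be estimated and the genotypes were compared without a test. Values in pairs are for p16-LRTD first and p16-Alb-LRTD second. Every interval below is a 95% interval that covers counting error only.

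TGF-beta ligands are secreted bound to a latency peptide, and latent TGF-beta binding proteins such as Ltbp1 tether that complex to the matrix until integrins or proteases release it. The free ligand joins the type II receptor Tgfbr2 with the type I receptor Tgfbr1, which phosphorylates SMAD2 and SMAD3, while Tgfbr3 (betaglycan) is a co-receptor that presents ligand, TGF-beta2 above all. Smad7 and Skil (SnoN) are induced by the pathway and restrain it. In injured liver, TGF-beta is a classical driver of HSC activation and collagen synthesis.

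The filters of the study kept 9004 of 11149 barcodes in the first library and 7416 of 8806 in the second. The libraries held 193746596 and 162219167 UMIs (unique molecular identifiers, each counting 1 captured transcript). A total of 95 barcodes occurred in both libraries, 18 of them among kept cells. The stellate gate held 7852 and 6621 cells, with a median of 17024 and 18136 UMIs. The endothelial gate held 430 and 283 cells (medians of 11781 and 11992 UMIs), and the Kupffer gate 283 and 178 cells (19514 and 25102 UMIs). Among the gated classes, each list of marker genes outside the gates was highest in its own class. A list of 7 stellate genes outside the gate, led by Dcn, summed to 29314 and 32322 CPM (UMIs of a gene scaled to a common total) in stellate cells against 420 and 377 CPM in Kupffer cells. The 7 endothelial genes summed to 7955 and 6965 CPM in endothelial cells against 78.4 and 54.9 CPM in stellate cells. The 7 Kupffer genes summed to 11532 and 14235 CPM in Kupffer cells against 29.0 and 22.1 CPM in stellate cells. Separation was less clean elsewhere. The endothelial genes summed to 560 and 757 CPM in Kupffer cells, with Cdh5 alone at 361 and 530 CPM. In endothelial cells the stellate genes summed to 606 and 485 CPM and the Kupffer genes to 84.3 and 65.5 CPM.

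Genes known to be induced by tissue digestion differed between the libraries in every class, and digestion cannot be told apart from genotype here. Of 14 such genes, Fos, Jun, Egr1 and Hspa1a among them, 14 were higher in p16-Alb-LRTD stellate cells, and their sum was 8178 CPM and 12128 CPM. In endothelial cells 13 of 14 were higher (4233 and 7393 CPM), and in Kupffer cells 14 of 14 (5170 and 6611 CPM). Ratios with both libraries given the same mix of cells over 3 bins of that list (equal digestion bins) are given with the members below.

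In stellate cells the ligand isoforms and the receptors went in both directions. Tgfb1, Tgfbr1, Tgfbr3, Smad7 and Skil were higher in p16-Alb-LRTD, and Tgfb2, Tgfb3, Tgfbr2 and Ltbp1 were lower. All 9 reached a mean of 5 CPM, and every counting interval lay to 1 side of no difference. The differences were small. Past a 1.5-fold limit, 0 members were higher and 1, Tgfb2, was lower, beside 3.03% of 10179 genes that were higher past that limit and 3.05% that were lower. The median log2 ratio of p16-Alb-LRTD over p16-LRTD was 0.10 for the 9 genes and -0.05 for all genes at that level, and that of the 9 genes was 0.0047 with equal digestion bins.

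**Figure D1:**
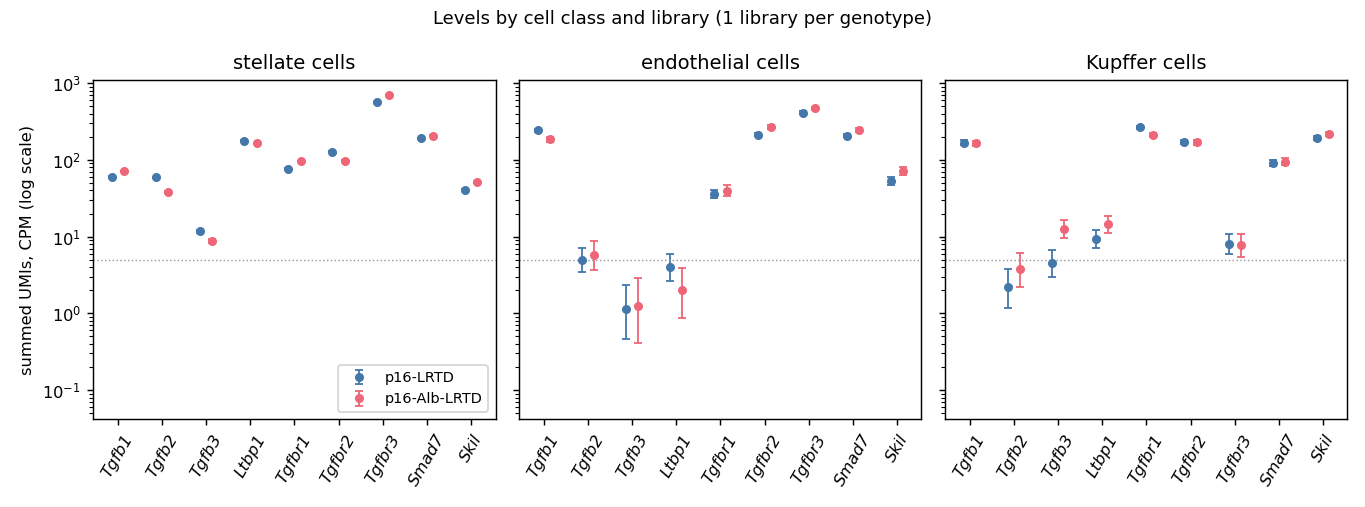
Level of each gene in stellate, endothelial and Kupffer cells, as CPM of the UMIs summed over the cells of a class, on a log axis. Points are the p16-LRTD (blue) and p16-Alb-LRTD (red) libraries, bars are 95% Poisson intervals, and the dotted line is the minimum of 5 CPM. Tgfb2 stood at 59.1 and 38.6 CPM in stellate cells and near the minimum in endothelial cells.

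Tgfb1 (chr7:25687002-25705077, plus strand; gene coordinates are on GRCm38) encodes the isoform most studied in liver fibrosis. Its stellate level was 60.6 CPM and 71.1 CPM, from 8646 and 8898 UMIs. The log2 ratio was 0.23 (0.19 to 0.27), and 0.25 with equal digestion bins. With each cell thinned to 5000 UMIs, 25.2% of p16-LRTD stellate cells (24.3 to 26.2%) and 28.3% of p16-Alb-LRTD stellate cells (27.3 to 29.5%) held a Tgfb1 UMI, against 60.4% and 65.4% without thinning.

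Tgfb2 (chr1:186622792-186705989, minus strand) showed the largest stellate difference of the 9 over all cells. Its level was 59.1 CPM and 38.6 CPM, from 8437 and 4829 UMIs, with a log2 ratio of -0.62 (-0.67 to -0.56). A smaller share of cells carried it as well, 20.7% (19.8 to 21.6%) and 13.3% (12.4 to 14.1%) after thinning, and without thinning 45.2% and 31.3%. Kupffer cells gave a thinned share of 1.08% and 0.565%. Their Tgfb2 level was 2.19 (1.16 to 3.74) and 3.80 (2.21 to 6.09) CPM. The median share of stellate RNA among them would give 0.942 and 0.592 CPM and the highest 2.17 and 0.807 CPM, and 9 of the 17 UMIs in p16-Alb-LRTD lay in a single cell. The ratio lay just past the 1.5-fold limit, and it lay inside it at -0.57 with TMM or median-of-ratios scaling of the same sums, at -0.43 with equal digestion bins and at -0.50 with equal collagen bins (described further on). With equal collagen bins the differences of Tgfbr1 (0.57) and Skil (0.54) were larger in size than that of Tgfb2.

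Tgfb3 (chr12:86056745-86079041, minus strand) had the fewest UMIs of the ligands, 1670 and 1094. Its stellate level was 11.7 CPM and 8.74 CPM, and the log2 ratio was -0.42 (-0.53 to -0.31), and -0.31 with equal digestion bins. The thinned share of cells was 4.80% and 3.87%. Thus Tgfb1 and Tgfb2, near equal in UMIs in p16-LRTD stellate cells, were no longer so in p16-Alb-LRTD. The UMI ratio of Tgfb1 to Tgfb2 was 1.03 and 1.84, a log2 change of 0.85 (0.78 to 0.91) that no scaling of the libraries can alter. It does depend on the mix of cells. The log2 ratios of Tgfb1 and Tgfb2 lay closer together with equal digestion bins (0.25 and -0.43) and equal collagen bins (0.07 and -0.50). In the highest collagen bin they were 0.09 and -0.04.

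The promoters of these ligand genes are shown because the genes went opposite ways. They come from RefSeq on GRCm38.p6, run 5′ to 3′ on the strand of the gene, and span 250 bases before to 50 bases after the start. Promoters were matched for 5 of the 9 genes, Tgfb1, Tgfb2, Tgfbr1, Tgfbr2 and Ltbp1. Capitals mark matches, on either strand, to an AP-1 site (TGANTCA), a CRE (TGACGTCA), a SMAD palindrome (GTCTAGAC), a CAGA box (CAGACA), a GC box (GGGCGG) or a TATA box (TATAAA). The Tgfb1 window is chr7:25686752-25687051 on the plus strand and that of Tgfb2 is chr1:186705940-186706239 on the minus strand.
Tgfb1: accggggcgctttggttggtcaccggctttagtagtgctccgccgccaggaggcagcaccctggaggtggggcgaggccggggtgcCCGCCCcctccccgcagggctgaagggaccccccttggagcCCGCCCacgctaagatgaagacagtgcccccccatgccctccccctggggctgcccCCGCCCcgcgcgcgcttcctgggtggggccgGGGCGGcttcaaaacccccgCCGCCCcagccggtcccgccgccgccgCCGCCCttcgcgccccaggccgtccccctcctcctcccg
Tgfb2: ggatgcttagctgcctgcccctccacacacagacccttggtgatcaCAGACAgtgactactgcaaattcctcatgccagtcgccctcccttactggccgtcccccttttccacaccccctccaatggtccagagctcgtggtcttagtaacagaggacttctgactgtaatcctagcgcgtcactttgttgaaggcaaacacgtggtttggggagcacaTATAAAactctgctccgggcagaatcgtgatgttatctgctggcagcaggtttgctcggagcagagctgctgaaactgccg
The Tgfb1 window held 6 GC boxes, 30 CpG dinucleotides and no match to the other motifs. The Tgfb2 window held a TATA box beginning 31 bases before the start, a CAGA box beginning 204 bases before it, 10 CpG dinucleotides and no GC box. Over all 32851 promoters of this length, 35.7% held a GC box, 13.6% a TATA box, 21.0% a CAGA box, 7.81% an AP-1 site, 1.79% a CRE and 0.213% a SMAD palindrome. These matches describe letters and not binding.

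Ltbp1 (chr17:75005568-75392512, plus strand), which stores latent TGF-beta in the matrix, was nearly level in stellate cells. It stood at 178.3 CPM and 166.1 CPM, with a log2 ratio of -0.10 (-0.13 to -0.08). Its direction turned when both libraries were given the same mix of collagen levels, at a log2 ratio of 0.09, and with equal digestion bins the ratio was -0.0078. Its thinned share of cells was 52.0% and 50.2%. Of the 2 start sites listed for Ltbp1, the first (chr17:75005279-75005578, plus strand) held a CRE and the second (chr17:75178531-75178830, plus strand) held 2 CAGA boxes.

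The signalling receptors Tgfbr1 (chr4:47353222-47414931, plus strand) and Tgfbr2 (chr9:116084293-116175360, minus strand) moved apart. Tgfbr1 stood at 76.2 CPM and 95.9 CPM in stellate cells, with a log2 ratio of 0.33 (0.29 to 0.37). Tgfbr2 stood at 128.5 CPM and 98.1 CPM, with a log2 ratio of -0.39 (-0.42 to -0.36). The UMI ratio of Tgfbr1 to Tgfbr2 was therefore 0.593 in p16-LRTD and 0.978 in p16-Alb-LRTD, a log2 change of 0.72 (0.67 to 0.77). With equal digestion bins the ratios were 0.40 for Tgfbr1 and -0.31 for Tgfbr2. Shares of cells moved likewise. After thinning, 26.9% and 35.1% of stellate cells held a Tgfbr1 UMI and 44.0% and 37.1% a Tgfbr2 UMI.

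The receptor promoters are shown for the same reason, at chr4:47352972-47353271 on the plus strand for Tgfbr1 (the first of 2 start sites) and chr9:116175314-116175613 on the minus strand for Tgfbr2, with capitals as above.
Tgfbr1: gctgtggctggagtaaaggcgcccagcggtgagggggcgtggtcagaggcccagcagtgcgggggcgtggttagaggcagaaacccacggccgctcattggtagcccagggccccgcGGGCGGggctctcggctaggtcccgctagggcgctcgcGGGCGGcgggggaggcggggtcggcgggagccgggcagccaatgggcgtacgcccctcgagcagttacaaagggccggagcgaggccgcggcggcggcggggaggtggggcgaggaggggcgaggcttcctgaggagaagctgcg
Tgfbr2: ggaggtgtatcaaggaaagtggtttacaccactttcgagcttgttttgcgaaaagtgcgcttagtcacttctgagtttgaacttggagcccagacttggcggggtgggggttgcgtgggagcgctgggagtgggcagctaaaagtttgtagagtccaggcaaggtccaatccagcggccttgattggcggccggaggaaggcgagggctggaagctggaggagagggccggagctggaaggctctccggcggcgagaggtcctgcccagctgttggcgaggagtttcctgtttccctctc
The Tgfbr1 window held 2 GC boxes and 34 CpG dinucleotides, and the window of its second start site (chr4:47385966-47386265, plus strand) held a CAGA box and 3 CpG dinucleotides. The Tgfbr2 window held no match to any of the 6 motifs and 15 CpG dinucleotides.

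Tgfbr3 (chr5:107106570-107289629, minus strand) was detected in nearly every stellate cell. Its level was 573.8 CPM and 694.1 CPM, with a log2 ratio of 0.27 (0.26 to 0.29), and of 0.26 with equal digestion bins. After thinning, 90.01% and 93.7% of stellate cells held a UMI, against 2.52% and 3.39% of Kupffer cells. The UMI ratio of Tgfbr3 to Tgfbr2 was 4.47 and 7.08.

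The feedback genes were both higher in p16-Alb-LRTD. Smad7 (chr18:75367529-75395935, plus strand), which blocks the type I receptor, stood at 191.9 CPM and 205.7 CPM in stellate cells, with a log2 ratio of 0.10 (0.08 to 0.12). With equal digestion bins it was 0.0047. Skil (chr3:31095058-31122577, plus strand), a repressor of SMAD-driven transcription, stood at 41.1 CPM and 52.0 CPM, with a log2 ratio of 0.34 (0.29 to 0.39), and of 0.26 with equal digestion bins. Thinned shares were 53.6% and 58.2% for Smad7 and 17.4% and 21.7% for Skil.

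**Figure D2:**
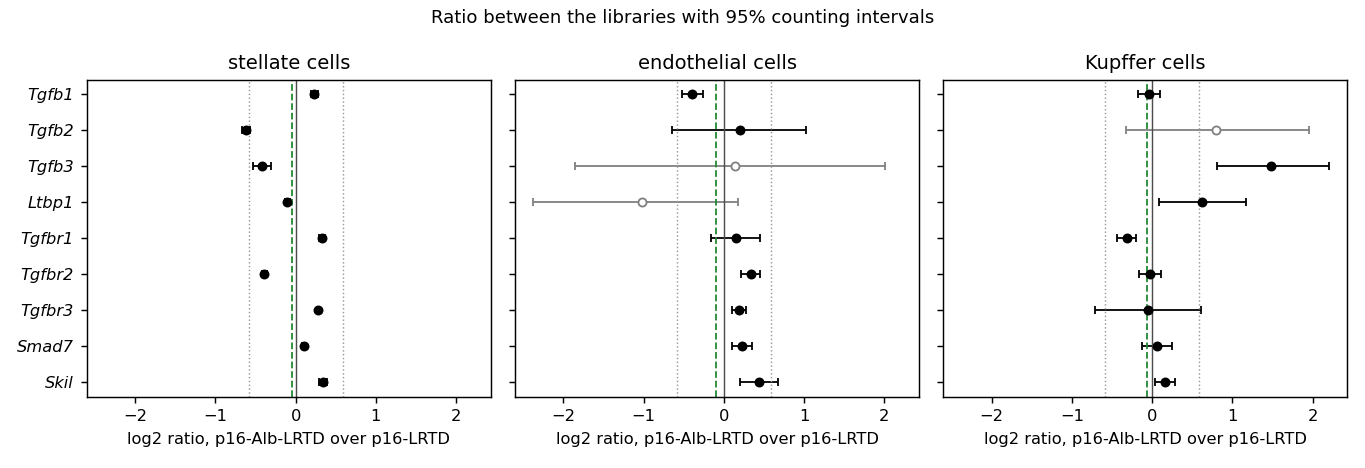
Log2 ratio of the p16-Alb-LRTD level over the p16-LRTD level for each gene in the 3 cell classes. Points are ratios of CPM, bars 95% counting intervals, dotted lines the 1.5-fold limit, the green dashed line the median of all genes, and open grey points genes under a mean of 5 CPM. In stellate cells Tgfb2 (-0.62) and Tgfbr2 (-0.39) lie left of 0 and Tgfbr1 (0.33) and Skil (0.34) right of it.

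The stellate gate genes themselves differed, with log2 ratios of 0.43 for Hgf, 0.23 for Ecm1, 0.21 for Lrat and 0.02 for Reln. Taking all kept barcodes outside the other gates instead of the stellate gate kept the direction of all 9 genes, at -0.41 for Tgfbr2 and 0.31 for Tgfbr1. Marker genes of vascular smooth muscle or pericytes (Myh11, Notch3 and Cnn1) summed to 190.8 CPM and 87.0 CPM in stellate cells, and Cnn1 was near 0 in both. The 8 portal fibroblast or mesothelial genes summed to 194.9 and 183.1 CPM. Of the 4 at 5 CPM or more, 1 was higher (Gas1, 74.4 and 102.7 CPM) and 3 were lower, with a median log2 ratio of -0.52, among them Dpt (-1.02) and Cd34 (-1.22). Their part in the differences was not tested.

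Stellate cells of the libraries differed in collagen level, which the 9 genes follow to different extents. The cells of both libraries were ranked by the share of their UMIs in Col1a1, Col1a2 and Col3a1 and cut into 4 equal bins. The highest bin held 2891 of 7852 p16-LRTD cells and 728 of 6621 p16-Alb-LRTD cells, and the lowest 1723 and 1895. Within the highest bin Col1a1 was still 4203 CPM and 2325 CPM, so that bin is not matched in collagen.

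Along this axis Tgfbr1 and Skil were higher in collagen-rich cells of both libraries. From the lowest to the highest bin, the log2 difference of Tgfbr1 was 1.18 in p16-LRTD and 0.61 in p16-Alb-LRTD, and that of Skil 0.99 and 0.62. Tgfb1 went the other way, by -0.62 and -0.71. Ltbp1 and Tgfbr2 were also higher in collagen-rich cells, by 0.71 and 0.59 for Ltbp1 and 0.65 and 0.41 for Tgfbr2. Smad7 differed along the axis by 0.59 and 0.20, and Tgfbr3 by 0.21 and -0.06. Tgfb3 differed by 0.44 and 1.59, the largest of these values, and Tgfb2 by 0.07 and 0.73.

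In the lower 3 bins the differences of Tgfbr1 and Skil between the libraries were larger than over all cells. Tgfbr1 stood at 45.8 and 80.5 CPM in the lowest bin, with a log2 ratio of 0.81, and the ratio was 0.84, 0.62 and 0.25 in the next 3 bins. Skil had ratios of 0.69, 0.68, 0.60 and 0.32 from the lowest to the highest bin. With the same mix of bins in both libraries, Tgfbr1 had a log2 ratio of 0.57 and Skil of 0.54. Both values exceed the ratios over all cells, 0.33 and 0.34, and that of Smad7 went from 0.10 to 0.20. Other ratios shrank under the same mix, from 0.23 to 0.07 for Tgfb1, from -0.42 to -0.10 for Tgfb3, from -0.62 to -0.50 for Tgfb2 and from -0.39 to -0.23 for Tgfbr2, while Tgfbr3 was at 0.29. Tgfbr3 had ratios of 0.36, 0.43, 0.28 and 0.09 from the lowest to the highest bin, and Smad7 of 0.32, 0.39, 0.22 and -0.06, so the feedback gene was not higher in p16-Alb-LRTD among the most collagen-rich cells. Tgfb1 (0.19, 0.12, -0.15 and 0.09) and Ltbp1 (0.18, 0.02, 0.10 and 0.06) differed little in any bin.

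Tgfb2 behaved otherwise. It was lower in p16-Alb-LRTD in the collagen-poor bins, at 57.3 and 35.5 CPM in the lowest bin and 69.5 and 34.8 CPM in the next, with log2 ratios of -0.69 and -0.999. In the third bin the ratio was -0.39. In the highest bin it was 60.4 and 58.7 CPM, a ratio of -0.04 (-0.15 to 0.07), which counting error does not separate from no difference. Tgfb3 turned direction, with ratios of -0.59, -0.81, -0.20 and 0.56, and reached 19.7 CPM in the highest bin of p16-Alb-LRTD against 13.3 CPM in p16-LRTD. Tgfbr2 was lower in p16-Alb-LRTD in all 4 bins, at -0.12, -0.14, -0.27 and -0.36.

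**Figure D3:**
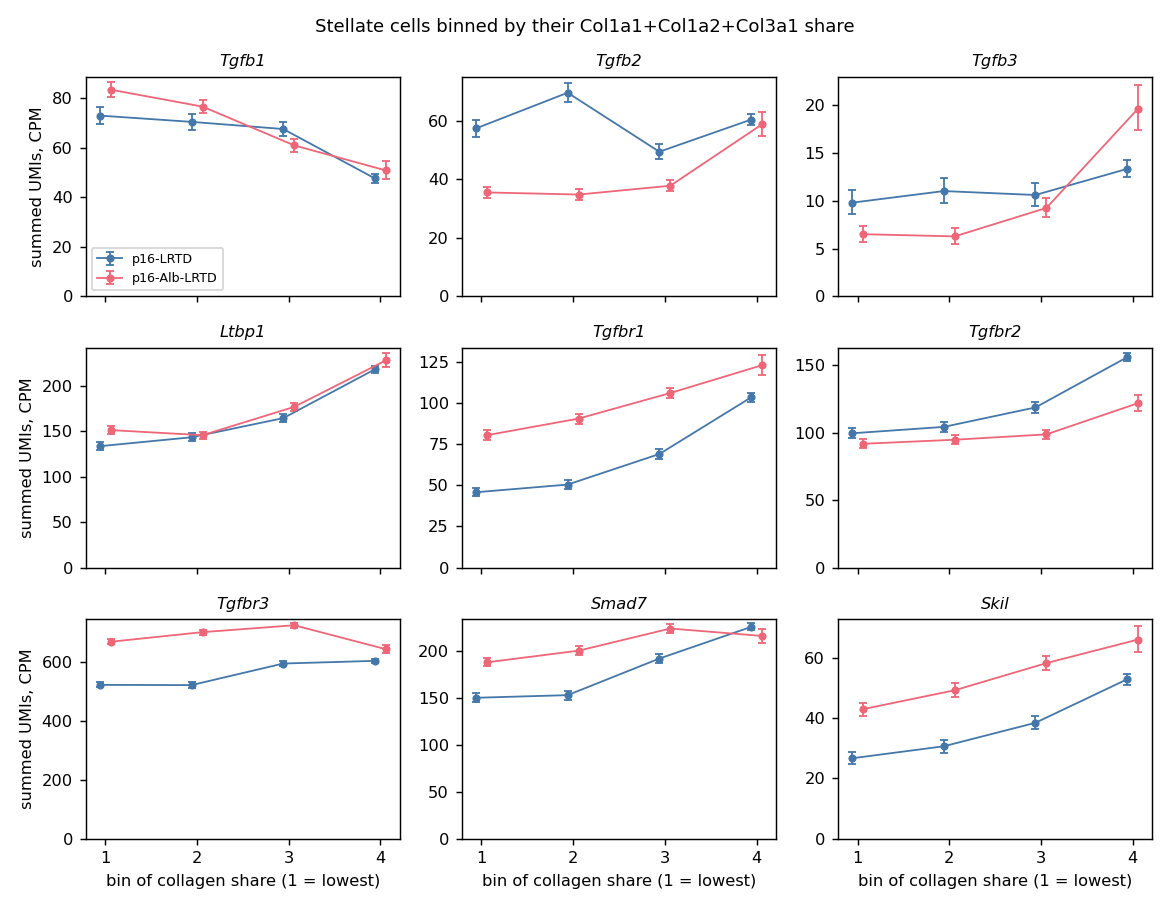
Level of each gene in stellate cells binned by their Col1a1, Col1a2 and Col3a1 share, as CPM of the summed UMIs, from the lowest bin (1) to the highest (4). Points are p16-LRTD (blue) and p16-Alb-LRTD (red) with 95% Poisson intervals. Tgfb2 differs in the lower bins and meets in the highest (60.4 and 58.7 CPM), while Tgfbr1 is higher in p16-Alb-LRTD in all 4.

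The classes differed in which members they carried. In the order of levels, Tgfb2, Ltbp1 and Tgfbr3 were highest in stellate cells of both libraries, Tgfbr2 and Smad7 in endothelial cells, and Tgfbr1 and Skil in Kupffer cells. The Smad7 intervals of p16-LRTD endothelial and p16-Alb-LRTD stellate cells overlapped, as did those of Tgfb3 in p16-Alb-LRTD Kupffer and p16-LRTD stellate cells. Tgfb1 was lowest in stellate cells, at 60.6 and 71.1 CPM, against 243.7 and 185.8 CPM in endothelial cells and 168.5 and 164.5 CPM in Kupffer cells, and the intervals of the p16-Alb-LRTD endothelial level and both Kupffer levels overlapped along the order. Stellate RNA made up a floor in the other classes. Judged by the 7 stellate check genes, the endothelial libraries held a median of 2.37% and 1.52% of the stellate level and the Kupffer libraries 1.59% and 1.53%. At that share Tgfbr3 would reach 9.14 and 10.7 CPM in Kupffer cells, where it was measured at 8.07 and 7.82 CPM, so it was not above that background.

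In endothelial cells 7 of the 9 genes reached 5 CPM, and Tgfb3 (1.14 and 1.26 CPM) and Ltbp1 (4.06 and 2.01 CPM) did not. Past 1.5-fold, 0 members were higher and 0 lower, beside 6.44% of 9858 genes higher and 13.5% lower. The members' median log2 ratio was 0.20, with -0.10 for all genes. Tgfb1 was 243.7 CPM and 185.8 CPM, with a log2 ratio of -0.39 (-0.52 to -0.26). Tgfbr2 was 214.2 and 269.9 CPM, a ratio of 0.33 (0.22 to 0.45), opposite in sign to its stellate ratio and between 0.13 and 0.43 over 12 alternatives. Skil was 53.0 and 71.8 CPM, a ratio of 0.44 (0.20 to 0.67), and Smad7 208.1 and 243.3 CPM, a ratio of 0.22. Tgfbr3 had a ratio of 0.19, and 0.07 with equal digestion bins, and Tgfbr1 of 0.15. Among endothelial cells with under 2 per 10000 UMIs of the other classes, Tgfbr1 was at 0.48 and Skil at 0.20. Tgfb2 stood at 5.04 and 5.77 CPM from 31 and 23 UMIs, 11 of the latter in a single cell, and its ratio turned from 0.20 to -0.43 without the cell with the most UMIs of each library. The p16-LRTD endothelial cells also carried more collagen RNA, with Col1a1 at 215 CPM and 5.02 CPM, and the infiltrating macrophage genes (Ccr2, Ly6c2, Spp1 and S100a8) summed to 16.1 and 72.3 CPM. Their part in these ratios was not tested.

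In Kupffer cells 8 of the 9 genes reached 5 CPM, Tgfb2 (2.19 and 3.80 CPM) being the other. Past 1.5-fold, 2 members were higher, Tgfb3 and Ltbp1, and 0 were lower, beside 5.21% of 9514 genes higher and 6.83% lower. Tgfb3 reached the minimum of 5 CPM only through p16-Alb-LRTD, where it was high, and Ltbp1 rests on 1 cell of each library (values below), so this count is no support for a difference of the members. The members' median log2 ratio was 0.02, with -0.06 for all genes. Tgfb3 was 4.54 CPM and 12.7 CPM, from 27 UMIs in 21 cells and 57 UMIs in 31 cells, with a log2 ratio of 1.49 (0.80 to 2.21) and of 0.85 to 1.68 over 12 alternatives. Thinned to 5000 UMIs, only 4 of 278 and 2 of 177 Kupffer cells held a Tgfb3 UMI, and thinned to 3000 UMIs 3 of 283 and 6 of 178. The difference in shares was not detectable at either depth, against 7.42% and 17.4% of cells unthinned at their unequal depths. Ltbp1 was 9.42 and 14.5 CPM, but 45 of its 56 UMIs in p16-LRTD and 50 of its 65 in p16-Alb-LRTD lay in a single cell of each library. Its ratio was 0.63 and ran from -2.01 to 4.43 over 12 alternatives, turning direction in cells of 10000 to 30000 UMIs (-2.01) and with barcodes of more than 1 gate kept (-0.62). Tgfbr1, highest in this class, was 265.9 and 213.7 CPM, a ratio of -0.32 (-0.43 to -0.20). Its share of cells was 62.9% (57.0 to 68.6%) and 53.1% (45.5 to 60.6%) thinned to 5000 UMIs, with overlapping intervals. Thinned to 3000 UMIs the share was 39.6% and 38.8%. Tgfb1 (168.5 and 164.5 CPM), Tgfbr2 (171.7 and 169.2 CPM) and Smad7 (90.7 and 95.01 CPM) had intervals that include no difference, and the Smad7 ratio turned from 0.07 to -0.13 with equal digestion bins. Skil was 193.3 and 215.9 CPM, a ratio of 0.16 (0.04 to 0.28) that became -0.05 with equal digestion bins. The infiltrating macrophage genes summed to 328.3 and 151.1 CPM in this gate, and their part in the ratios was not tested.

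The other genes of the pathway were read in stellate cells from 5 lists of 62 genes, beside 3.03% of all stellate genes that were higher past 1.5-fold, 3.05% that were lower and a median log2 ratio of -0.05. The 16 latency and activation genes gave 14 at 5 CPM or more, of which 0 were higher and 1 lower past 1.5-fold, with a median log2 ratio of -0.09. A single gene of 14 is close to the share over all genes. Ltbp2, a fibrillin-binding relative of Ltbp1, was the lower one, at 15.4 and 7.22 CPM (-1.10). Thbs1, which encodes the activator thrombospondin-1, was 176.9 and 245.8 CPM (0.47), and Fbn1, the fibrillin that anchors the latent complex, was 240.3 and 177.7 CPM (-0.44). Bmp1, a protease that cleaves Ltbp1, was 56.2 and 41.5 CPM (-0.44).

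Of 9 other receptors and co-receptors, 6 were at 5 CPM or more, 1 was higher past 1.5-fold and 0 lower, with a median of 0.06, and a count of 1 in so short a list says little beside 3.03% of all genes. Acvr2a, a type II receptor for activins, was the higher one, at 207.8 and 318.6 CPM (0.62). The co-receptor Nrp1 was 318.4 and 225.4 CPM (-0.50), the activin receptor Acvr2b 7.35 and 9.18 CPM (0.32), and Acvr1, a BMP and activin type I receptor, 146.4 and 134.1 CPM (-0.13).

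All 14 SMADs and regulators were at 5 CPM or more, and 0 were past 1.5-fold in either direction, with a median of 0.02. Pmepa1, another TGF-beta-induced inhibitor, was 407.9 and 322.4 CPM (-0.34), opposite in direction to Smad7 and Skil. The ubiquitin ligase Wwp1 (-0.27) and the receptor-binding Fkbp1a (-0.19) were also lower, and the corepressor Ski was 203.1 and 223.1 CPM (0.14). Of 5 genes of the activin branch only Inhba reached 5 CPM, at 26.7 and 27.1 CPM (0.02).

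The 18 target genes showed the widest spread. Of 16 at 5 CPM or more, 2 were higher and 8 lower past 1.5-fold, and the median log2 ratio was -0.59, against 3.03% and 3.05% of all genes and a median of -0.05. The lower ones were Col1a1 (-1.95), Acta2 (-1.83), Col3a1 (-1.60), Timp1 (-1.52), Col1a2, Lox, Postn and Fn1, which encode matrix proteins, a matrix-linking enzyme, a protease inhibitor and the smooth muscle actin of activated HSCs. The smooth muscle or pericyte genes Myh11 (150.4 and 73.8 CPM) and Notch3 (40.4 and 13.1 CPM) were lower in this gate too, with Cnn1 near 0. Their part in the Acta2 value was not tested. The higher ones were Ctgf, a matricellular protein, at 335.2 and 734.4 CPM (1.13), and Junb at 929.6 and 1567 CPM (0.75). Junb also stands on the digestion list. Values with equal digestion bins are given for the members alone, so the part of digestion in the list values was not tested. Tgfbi (0.41), a matrix protein gene well known to be induced by TGF-beta, was higher as well, within the limit. The list thus held members in both directions. In endothelial cells 13 of the 18 target genes reached 5 CPM, 3 higher and 8 lower past 1.5-fold, beside 6.44% and 13.5% of all genes. Acta2, Col5a1, Postn and Tagln, 4 of those 8, reached the minimum only through p16-LRTD, where they were high, as did Col5a1 and Postn in Kupffer cells. In Kupffer cells 11 did, with 2 higher and 5 lower, beside 5.21% and 6.83% of all genes. The 5 lower Kupffer genes were Col1a1, Col1a2, Col3a1, Col5a1 and Postn, all at or below the level that the highest share of stellate RNA among the check genes would give (Col1a1 at 22.4 and 6.48 CPM against 71.6 and 10.53 CPM, and Col3a1 at 95.9 and 22.8 CPM against 150.0 and 28.1 CPM). Ctgf, among the higher, was 6.39 and 10.7 CPM against 12.3 and 15.4 CPM. These 6 Kupffer values are therefore not separable from stellate RNA. In endothelial cells, Col1a1 was 215 and 5.02 CPM against 102.2 and 28.2 CPM at the highest share of stellate RNA, while Col5a1, Postn and Tagln were below that level in both libraries (Tagln at 31.7 and 4.27 CPM against 32.5 and 24.4 CPM). Over the other 4 lists, 1 gene was higher and 2 were lower in endothelial cells, and 0 were higher and 3 lower in Kupffer cells. In the order above, these lists had 11, 8, 14 and 1 genes at 5 CPM in endothelial cells and 9, 8, 13 and 0 in Kupffer cells. The shares of all genes are those just given. Itgb5 (11.9 and 4.27 CPM) and Tgif2 (13.3 and 3.26 CPM), the 2 lower endothelial genes, reached the minimum only through p16-LRTD, where they were high.

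**Figure D4:**
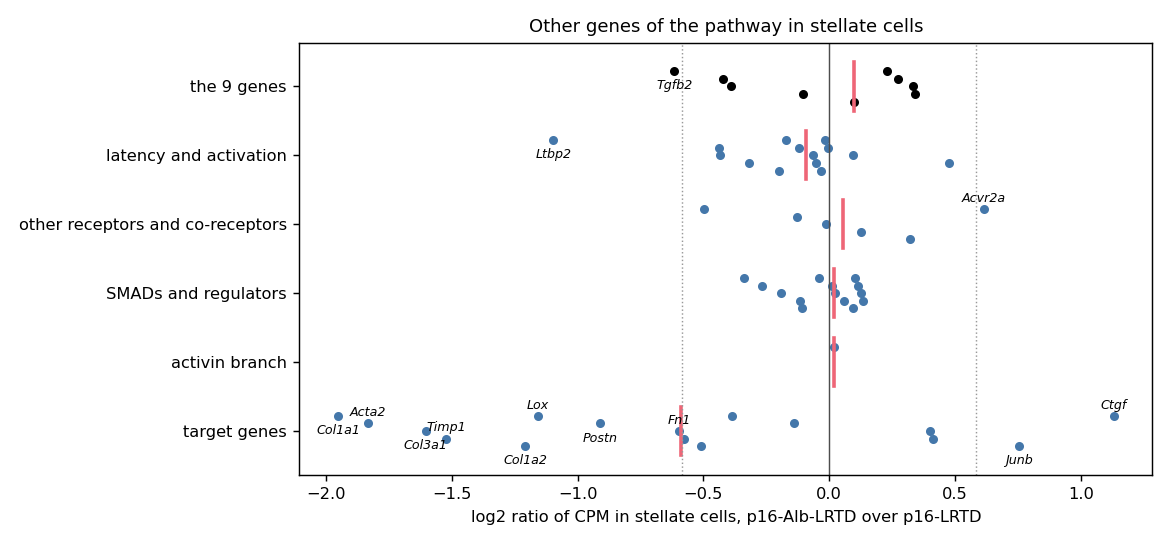
Log2 ratio of p16-Alb-LRTD over p16-LRTD in stellate cells for the 9 genes (black) and 5 lists of other pathway genes (blue), for genes at a mean of 5 CPM or more. Red bars are list medians, dotted lines the 1.5-fold limit, and genes past it are named. The target genes reach from -1.95 (Col1a1) to 1.13 (Ctgf), with a median of -0.59.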

How the data were processed

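Raw UMI counts per gene and barcode were deposited by the authors, who aligned 10x 3' v3.1 libraries to mm10 in CellRanger 7.0.1. Whether introns were counted is not given in the sources used here. Of 31054 features, 31011 matched GENCODE vM21 (GRCm38) by identifier. Tgfb3 lies opposite Ttll5 and Tgfb2 opposite Gm29491, and reads there may not be fully separated.

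Following the study, barcodes were kept at a mitochondrial share of at most 5%, 2000 to 7000 genes and at most 50000 UMIs. Gates per 10000 UMIs were 15 for stellate (Lrat, Ecm1, Hgf, Reln), 8 for endothelial (Kdr, Stab2, Ptprb) and 8 for Kupffer cells (Clec4f, Cd5l, Vsig4, Csf1r). Barcodes in more than 1 gate (245 and 221) were left out as a guard against doublets, and no doublet caller was run. Counts were summed per class and library and expressed as CPM. Intervals are exact Poisson, conditional binomial or Clopper-Pearson. Named genes are the 9 members and up to 4 genes per pathway list with the largest stellate ratio; target genes past the limit and Tgfbi were named after their values were seen. The members and lists were chosen with earlier results of these data known. Cells were thinned to 5000 UMIs for shares, which left out 16 and 7 stellate, 12 and 0 endothelial, and 5 and 1 Kupffer cells.

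On simulated data for the stellate comparison (10189 genes), 95.1% of intervals held the true ratio and 100% of genes changed 2-fold passed the limit. In the endothelial (9899 genes) and Kupffer (9511 genes) simulations 97% of 2-fold genes passed in each, as did 1.77% and 1.62% of unchanged genes, with median errors of 0.0932 and 0.0966 on the log2 scale against 0.0194 in stellate cells. The simulated counts were Poisson, as the intervals assume, with no variation between cells or mice. Such a simulation checks the calculation only. It cannot show that the intervals hold where the UMIs of a gene lie in few cells. Alternatives used edgeR 4.0.16 (TMM) and DESeq2 1.42.0 size factors in R 4.3.3, with Python 3.11.15, numpy 2.4.6, scipy 1.17.1, pandas 2.3.3 and matplotlib 3.10.9 for the rest.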

Additional observations from a re-analysis of the deposited data

Results flagged for a closer look

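Some genes differed between libraries in opposite directions in different cell classes, and these differences between classes were not tested. The log2 ratio of Tgfb1 was lower in endothelial than in stellate cells by a difference of -0.62. That of Tgfbr2 was higher in endothelial than in stellate cells by 0.72, and that of Tgfbr1 differed between Kupffer and stellate cells by -0.65. Tgfb3 in Kupffer minus stellate cells differed by 1.91, from 27 and 57 Kupffer UMIs. Ltbp1 in Kupffer minus stellate cells differed by 0.73, and most of its Kupffer UMIs lay in a single cell of each library.

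Barcodes that passed no gate, 194 in p16-LRTD and 113 in p16-Alb-LRTD, held more Tgfb2 and Tgfb3 RNA than the gated classes, while their Tgfb1 level of 82.1 and 82.6 CPM was above that of stellate cells and below that of endothelial and Kupffer cells. Tgfb2 stood there at 129.8 CPM and 75.4 CPM, and Tgfb3 at 30.2 CPM and 22.9 CPM. In these barcodes the stellate genes outside the gate summed to 7438 and 5982 CPM, most of it Dcn (6191 and 5038 CPM). The hepatocyte genes summed to 2464 and 1988 CPM, the Kupffer genes to 2023 and 2054 CPM and the infiltrating macrophage genes to 1618 and 1899 CPM. Portal fibroblast or mesothelial genes stood at 1269 and 840 CPM, endothelial genes at 149 and 176 CPM and cholangiocyte genes at 134 and 112 CPM. Lymphocyte genes stood at 43.0 and 120 CPM, and smooth muscle or pericyte genes at 31.1 and 11.3 CPM. The part of these cell types in the ligand levels was not tested.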

How the results depend on the processing

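No paired analysis was possible because the design has a single library on either side, which also leaves no replicate to omit. In stellate cells 8 of the 9 genes kept their direction in all 14 alternatives, and Ltbp1 in 13. The stellate median log2 ratio, 0.10, was 0.14 with TMM scaling, 0.15 with median-of-ratios scaling, 0.17 as a mean of per-cell CPM and 0.0047 with equal digestion-gene bins. The count of lower genes in stellate cells, 1 for Tgfb2, was 0 with TMM, with median-of-ratios scaling, with equal digestion-gene bins, with equal collagen bins and at a 2-fold limit. In endothelial cells 1 gene was higher when barcodes held under 2 per 10000 UMIs of the other classes or 10000 to 30000 UMIs, and 1 was lower at a minimum of 1 CPM. In Kupffer cells the 2 higher genes became 1 with higher gates, with barcodes of more than 1 gate kept, without a barcode filter, at a 2-fold limit, and without the cell with the most UMIs of a gene, an alternative chosen after seeing the data. They became 3 with under 2 per 10000 UMIs of the other classes and at a minimum of 1 CPM. Keeping barcodes of more than 1 gate gave 3 lower genes in Kupffer cells. The Kupffer ratio of Ltbp1, 0.63, became -0.62 with barcodes of more than 1 gate and -2.01 in cells of 10000 to 30000 UMIs. The cause of these shifts was not tested. Endothelial and Kupffer values rest on few cells, which limits their precision.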
